A study of Mus musculus with 45 samples.

Results

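Splenic regulatory T cells (Treg) from mice lacking the transcription factor Blimp1 in Foxp3-expressing cells were compared with Treg from control mice by RNA-seq, across all genes of the count table. The comparison rests on 4 of the 45 libraries of a mouse study on sex differences of Treg in visceral adipose tissue (VAT), taken by their sample names, with 2 libraries in each group. The Blimp1-deficient libraries came from male Blimp1fl/flFoxp3cre mice on C57BL/6, aged 25 weeks, and hold 33343529 and 20244609 counts. The control libraries came from male Foxp3cre mice of the same strain and age and hold 37257641 and 25645813 counts. In both groups YFP+ cells were sorted by flow cytometry and the spleens of 4 mice were pooled for each library. The Foxp3 gene drives the Cre recombinase, so both groups carry Foxp3cre and the deletion concerns cells that express or have expressed Foxp3. A set of male spleen Treg sorted through a Foxp3RFP reporter (2 libraries, 3 mice pooled in each, no age in the labels) is given beside them, as are Blimp1-deficient VAT Treg (2 libraries, 5 mice each) and the single Foxp3cre VAT library, all 3 with an age of 25 weeks, whose title and tissue say VAT while its source text names spleens of 4 mice. Nothing in the labels says whether pools shared animals with other groups. The p-values measure a spread between pools that was estimated over 19 sorted T cell libraries in 10 groups.

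Blimp1, encoded by Prdm1, is a zinc finger repressor best known for driving the differentiation of B cells into plasma cells. In Treg it marks the effector subset, and it is known for supporting expression of the cytokine gene Il10 and of effector molecules and for restraining genes of resting and follicular T cells. The spleen is rich in B cells, which sit beside Treg in the white pulp, so a sorted splenic Treg pool can carry RNA of B cells and other neighbours.

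The 3 defining markers were examined first. Prdm1 (chromosome 10, 44437174 to 44528558 in GRCm38) had 66.7 and 43.1 CPM in the Blimp1-deficient libraries, against 25.8 and 18.5 CPM in the Foxp3cre libraries, where CPM are counts relative to library size, per 1e6 counts, scaled by TMM factors. The targeted gene was thus not lower in the libraries labelled deficient: both lay above both controls, although the difference did not pass the test (log2 fold change 1.31, SE 0.37, edgeR adjusted p = 0.237). The male Foxp3RFP libraries had 49.2 and 62.6 CPM, in the range of the Blimp1-deficient ones. Counts cover the whole gene, including exons outside a deleted stretch, so they do not check the deletion, and the groups are called by their labels throughout. Foxp3, the lineage-defining factor of Treg, had 101 and 137 CPM in Blimp1-deficient and 150 and 34.8 CPM in Foxp3cre libraries, so the second control pool held the lowest level of the 4. Cd4 was at 782 and 684 CPM in Blimp1-deficient and 640 and 447 CPM in Foxp3cre libraries, and Cd3e, a T cell receptor subunit gene, at 513 and 523 CPM against 507 and 306 CPM. Ccr2, the receptor of CCL2 and the third marker, is described below with the other chemokine receptors.

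Foxp3cre replicate 2 had the highest B cell marker sum of the 6 male spleen Treg libraries. Over the list of 20 B cell markers the Blimp1-deficient libraries held 549 and 447 CPM in all, and the Foxp3cre libraries 1129 and 2777 CPM (CPM of all counts here and in the other sums). Most of the sum in the Blimp1-deficient pools was Cd37, a tetraspanin gene also used by T cells; without it, a choice made after the data were seen, the sums were 109 and 102 CPM in Blimp1-deficient, 690 and 2315 CPM in Foxp3cre and 945 and 1043 CPM in male Foxp3RFP libraries. At 0 counts were 6 and 8 of the 20 markers in the Blimp1-deficient libraries and none in either Foxp3cre library. The Treg core list of 18 genes summed to 6079 and 5565 CPM in Blimp1-deficient libraries and to 5227 and 3900 CPM in Foxp3cre libraries, lowest in the same control pool. In these sums fewer cells of a type and less RNA per cell cannot be told apart. Counts of called genes, and the calls of the main genes, are given with and without that library.

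**Figure D1:**
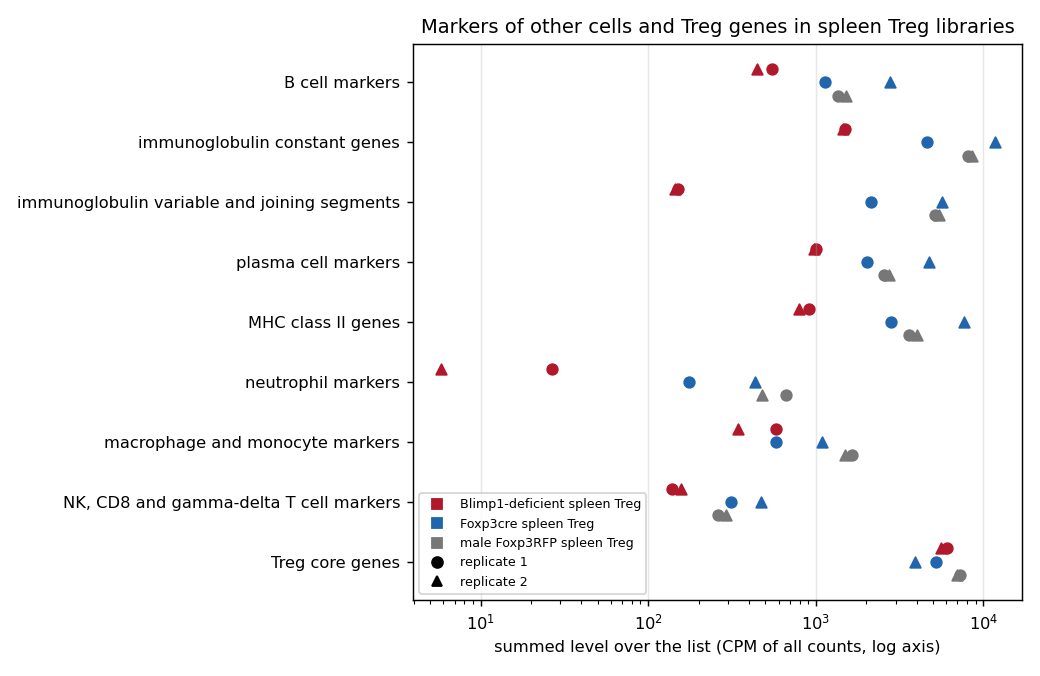
Summed level of 9 gene lists (rows) in each spleen Treg library, in CPM of all counts on a log axis; red, Blimp1-deficient, blue, Foxp3cre, grey, male Foxp3RFP, with replicate 1 as a circle and replicate 2 as a triangle. B lineage and neutrophil sums are lowest in both Blimp1-deficient libraries, and immunoglobulin segments reach 5655 CPM in Foxp3cre replicate 2.

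Of 17340 genes with enough counts to test, 55 passed an adjusted p of 0.05 and are termed called (0.317%), 18 higher (0.104%) and 37 lower (0.213%) in Blimp1-deficient spleen Treg, with edgeR's quasi-likelihood test and Benjamini-Hochberg adjustment over all genes. At an unadjusted p under 0.05 there were 1060 genes. With only the 4 libraries compared in the fit, 8 genes were called, 1 of them among the 55. Of the 37 lower genes, 17 were on the B lineage lists or were immunoglobulin segments, 1 was on a list of other cells (Ccl5), and 19 were on no list of other cells. None of the 18 higher genes was on a list of other cells. Without Foxp3cre replicate 2 the count was 18, 4 higher and 14 lower, and 16 of these were among the 55. Without Blimp1-deficient replicate 1 the count was 1, the B cell gene Cd79a. Without Blimp1-deficient replicate 2 it was 33, and without Foxp3cre replicate 1 it was 93.

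Genes of the B lineage were the most strongly reduced. Cd79a, a signalling subunit of the B cell receptor, had 2.99 and 0.517 CPM in Blimp1-deficient and 114 and 483 CPM in Foxp3cre libraries. The log2 fold change was -7.35 (SE 0.87, edgeR adjusted p = 0.0011), and the male Foxp3RFP libraries had 148 and 152 CPM. Ms4a1, which encodes CD20, had 1.88 and 0 CPM in Blimp1-deficient and 107 and 426 CPM in Foxp3cre libraries (log2 fold change -8.04, SE 1.31, adjusted p = 0.00702). The groups did not overlap for either gene, and in both the second Foxp3cre library was above the first.

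All 20 B cell markers had a negative log2 fold change, 7 were called lower and none higher, with a median of -6.15, against 0.00 over all genes tested. The 2 groups did not overlap, with the Blimp1-deficient pools lower, for 19 of the 20, against 16.0% of all genes tested; Cd37 was the exception, at 482 and 360 CPM in Blimp1-deficient and 454 and 525 CPM in Foxp3cre libraries. Cr2 (complement receptor 2), Fcer2a (CD23) and Bcl11a (a transcription factor of B cell development) had no count in either Blimp1-deficient library. With 3 counts in the whole group taken as the floor they were at least 827-fold, 723-fold and 458-fold lower, bounds that cover counting error only. Spib, an Ets family factor gene of B cells that is also a known target of Blimp1 repression, was lower as well (-5.97, SE 0.94, adjusted p = 0.00512). Without Foxp3cre replicate 2 the median of the 20 markers was -4.91 and 1 of them, Cd79a, was called (-6.00, adjusted p = 0.00629).

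Immunoglobulin genes and their partners followed. The kappa light chain constant gene Igkc had 163 and 103 CPM in Blimp1-deficient libraries, against 1936 and 6893 CPM in Foxp3cre libraries (log2 fold change -5.05, SE 0.72, adjusted p = 0.00224). Of 12 immunoglobulin constant genes 4 were called lower, namely Igkc, Ighd (-4.44), Iglc1 (-6.52) and Ighg2c, which had no count in the Blimp1-deficient libraries and was at least 2309-fold lower. Of the 210 variable, diversity and joining segments tested, 194 had a negative log2 fold change, with a median of -6.43, and 2 were called. Together 248 segments summed to 152 and 145 CPM in Blimp1-deficient and 2125 and 5655 CPM in Foxp3cre libraries. Reads of segments with near-identical copies may have been split between them, so single segments are not described.

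The heavy chain gene Ighm was not called. It had 1458 and 1411 CPM in Blimp1-deficient, 2347 and 5455 CPM in Foxp3cre and 4282 and 4353 CPM in male Foxp3RFP libraries, and its difference did not pass the test (-1.44, SE 0.44, adjusted p = 0.312). The ratio of Igkc to Ighm counts was 0.112 and 0.0728 in Blimp1-deficient libraries, 0.825 and 1.26 in Foxp3cre libraries and 0.767 and 0.832 in male Foxp3RFP libraries. Jchain to Igkc counts, in contrast, stood at 0.492 and 0.700 in Blimp1-deficient and 0.462 and 0.531 in Foxp3cre libraries. In VAT Treg the ratio of Igkc to Ighm was 0.0735 and 0.228 in Blimp1-deficient libraries and 0.254 in the Foxp3cre library. A low ratio was thus not particular to Blimp1-deficient spleen Treg.

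Among 15 plasma cell markers 2 were called lower. Jchain, the joining chain of secreted antibody, had 80.4 and 71.9 CPM in Blimp1-deficient and 895 and 3658 CPM in Foxp3cre libraries (-4.90, SE 0.64, adjusted p = 0.00117), and Mzb1, a chaperone of antibody assembly, was at -5.53. Xbp1, a factor of secretory cells, was at -0.33 (adjusted p = 1). Of 10 MHC class II genes 2 were called lower, H2-DMb2 (-4.94) and H2-Ob (-1.67), which encode chains of molecules that load class II with peptide or regulate that step. H2-Aa, a classical class II chain, had 137 and 88.1 CPM in Blimp1-deficient and 627 and 2412 CPM in Foxp3cre libraries but did not pass (-3.75, adjusted p = 0.0849). All 10 class II genes and all 15 plasma cell markers had negative fold changes. Without Foxp3cre replicate 2, Igkc, Ighd, Jchain, Mzb1 and H2-DMb2 were still called on these 3 lists.

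Markers of other neighbouring cells were also summed. Neutrophil markers summed to 26.7 and 5.78 CPM in Blimp1-deficient, 176 and 436 CPM in Foxp3cre and 665 and 480 CPM in male Foxp3RFP libraries, and none of the 12 was called. NK, CD8 and gamma-delta T cell markers summed to 138 and 156 CPM in Blimp1-deficient and 310 and 474 CPM in Foxp3cre libraries. One of these 12 was called lower, the chemokine gene Ccl5, at 42.7 and 51.7 CPM against 99.8 and 192 CPM (-1.63, SE 0.30, adjusted p = 0.0182), a call lost without Foxp3cre replicate 2 and without either Blimp1-deficient library. Macrophage and monocyte markers summed to 578 and 343 CPM in Blimp1-deficient, 575 and 1088 CPM in Foxp3cre and 1639 and 1497 CPM in male Foxp3RFP libraries, with Csf1r, the receptor that defines the lineage, at 33.7 and 13.1 CPM against 34.2 and 64.2 CPM. Of these 16 markers 15 had a negative log2 fold change, with a median of -1.03. The exception, Axl, made up much of the Blimp1-deficient sums. Scaled by TMM it had 291 and 182 CPM in Blimp1-deficient and 85.7 and 159 CPM in Foxp3cre libraries. Erythroid and platelet markers summed to 753 and 1616 CPM in Blimp1-deficient and 1081 and 8814 CPM in Foxp3cre libraries. None of the 16 macrophage, 10 dendritic cell or 14 erythroid and platelet markers tested was called.

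To set genes with a B-like pattern beside the rest, the ratio of Foxp3cre replicate 2 to replicate 1 was taken for each gene, a measure chosen after the data were seen that uses the same control libraries as the contrast. Its median was 3.64 over the 20 B cell markers (1.16 to 27.2), 0.823 over the 18 Treg core genes (0.232 to 1.90) and 0.928 over all genes tested. Of the 19 lower genes on no list of other cells, 8 had a ratio above 2. These were Scd1 (4.70), Ly6d (4.40), Cd24a (4.25), Fcmr (3.44), Napsa (3.33), Rnase6 (2.93), Syk (2.42) and Kctd12, which lay at the edge with 2.00. Several of them are known from B cells, such as Cd24a, Fcmr, an Fc receptor for IgM, and Syk, a kinase of B cell receptor signalling. Scd1, a fatty acid desaturase gene, had 2.73 and 2.38 CPM in Blimp1-deficient and 61.0 and 287 CPM in Foxp3cre libraries (-6.08, SE 0.76, adjusted p = 0.0011). The other 11 had ratios of at most 2, and the 18 higher genes lay between 0.743 and 1.54. The median ratio was 1.32 over plasma cell markers and 1.59 over immunoglobulin segments. It was 1.75 over NK, CD8 and gamma-delta T cell markers and 1.89 over macrophage and monocyte markers. The ratio of the summed CPM of all counts was, in the same order of lists, 2.35, 2.66, 1.53 and 1.89. With medians below 2, a ratio of at most 2 does not set a single gene apart from RNA of these cells.

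**Figure D2:**
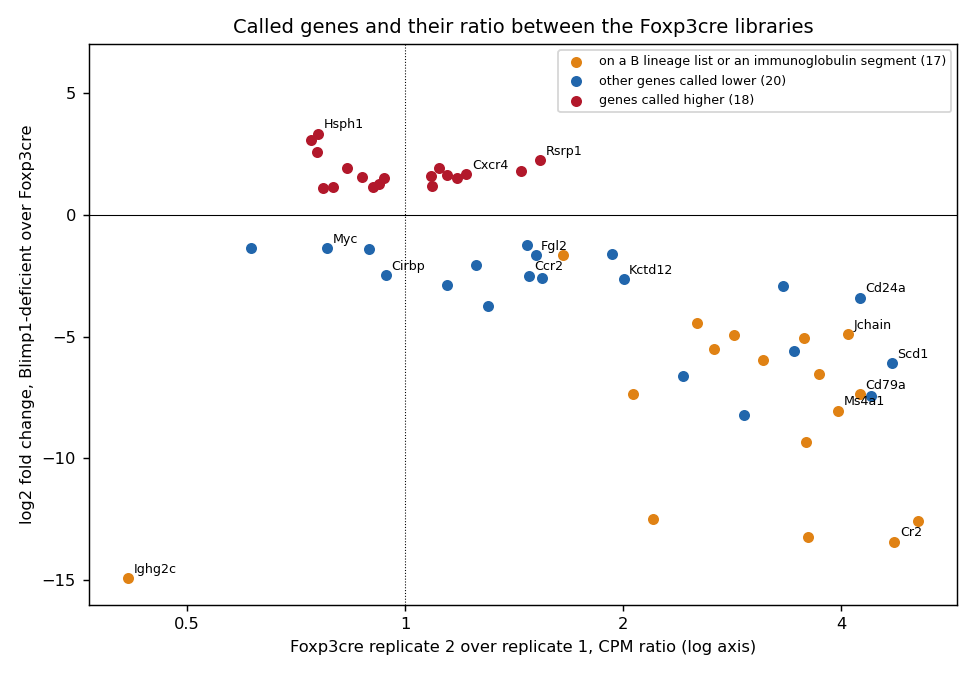
Log2 fold change of Blimp1-deficient over Foxp3cre spleen Treg (y axis) against the ratio of Foxp3cre replicate 2 to replicate 1 (x axis, log scale) for the 55 called genes. B lineage genes (orange) lie mostly to the right, beside Scd1 and Cd24a, while Ccr2, Cirbp and Myc lie left of a ratio of 2, as do all 18 genes called higher (red).

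Of 30 effector Treg genes 3 were lower, and each had a ratio of at most 1.52 between the control pools. Ccr2 (chromosome 9, 124101918 to 124109140 in GRCm38) had 11.6 and 14.6 CPM in Blimp1-deficient libraries, against 60.1 and 89.1 CPM in Foxp3cre libraries. The Blimp1-deficient pools were far below every other male spleen Treg pool, since the Foxp3RFP libraries had 88.0 and 129 CPM. The log2 fold change was -2.51 (SE 0.33, edgeR adjusted p = 0.00117), a 5.70-fold difference. It was -2.22 (adjusted p = 0.0285) without Foxp3cre replicate 2, and -2.36 (adjusted p = 0.0717) without Blimp1-deficient replicate 1. Fgl2, a secreted suppressive effector of Treg, had 29.5 and 55.6 CPM against 108 and 163 CPM (-1.67, SE 0.27, adjusted p = 0.00609). Its call was lost without Foxp3cre replicate 2 (-1.36, adjusted p = 0.143) and without Blimp1-deficient replicate 1 (-1.29, adjusted p = 0.16). Ccr2 and Fgl2 are also expressed by monocytes, and the part of the monocyte marker sums given above in these differences was not tested.

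The other 27 effector Treg genes were not called. Il10 had 0.790 and 0.517 CPM in Blimp1-deficient and 8.19 and 2.66 CPM in Foxp3cre libraries, and Gzmb, the cytotoxic protease granzyme B, had 0.921 and 1.34 CPM against 12.0 and 19.2 CPM. For both genes the libraries did not overlap, yet neither passed the test (Il10 -3.03, SE 1.06, adjusted p = 0.481; Gzmb -3.78, SE 1.32, adjusted p = 0.481). Klrg1, an inhibitory receptor of effector cells, was at -0.02 (SE 0.40) and Il1rl1, the IL-33 receptor ST2, at -0.05 (SE 0.24). Icos (0.47), Maf (0.39), Irf4 (0.10) and Gata3 (-0.32) did not pass either. Over the list of 30 the median was 0.24, with 18 positive and 12 negative values, 3 called lower and none called higher. Without Foxp3cre replicate 2 the number called lower was 2, Ccr2 among them.

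Genes that define Treg identity did not pass the test. None of the 18 Treg core genes was called, with a median of 0.36 and 10 positive values; without Foxp3cre replicate 2 none was called and the median was -0.09. Itgae, the integrin CD103, had 303 and 232 CPM in Blimp1-deficient and 78.8 and 68.7 CPM in Foxp3cre libraries without reaching the threshold (1.86, SE 0.52, adjusted p = 0.224). Foxp3 (0.36, SE 0.68), Il2ra, the IL-2 receptor alpha chain (-0.75, SE 0.34), and Ctla4, an inhibitory receptor (-0.10, SE 0.33), all had adjusted p above 0.7.

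**Figure D3:**
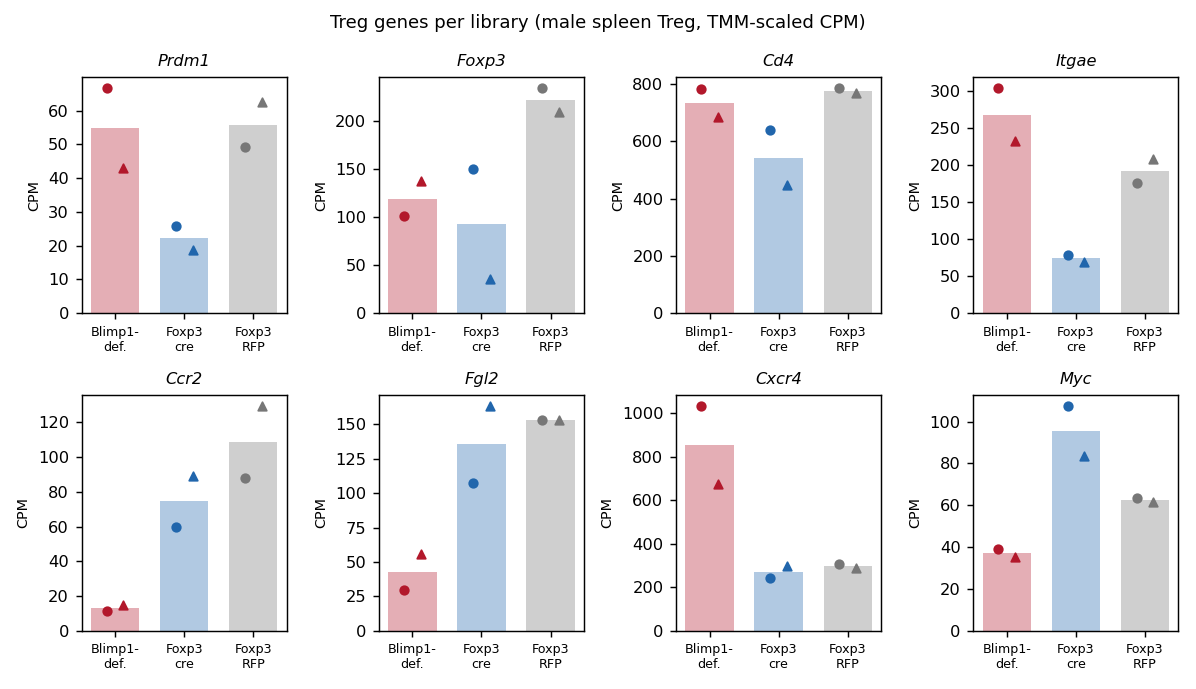
Level of 8 Treg genes in each male spleen Treg library, in TMM-scaled CPM; bars are group means of 2 libraries, circles replicate 1 and triangles replicate 2, with Blimp1-deficient in red, Foxp3cre in blue and Foxp3RFP in grey. Ccr2 and Fgl2 are lowest and Cxcr4 is highest in both Blimp1-deficient libraries, Prdm1 is not, and Foxp3 is lowest in Foxp3cre replicate 2 at 34.8 CPM.

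Of 12 genes known as Blimp1 targets in lymphocytes, 2 were called lower, Spib and Myc, and none higher. The median was -1.45, with 4 positive and 8 negative values. Spib, Pax5 and Ciita of this list are also on the lists of B cell markers or MHC class II genes. Myc, the growth regulator, had 39.0 and 35.0 CPM in Blimp1-deficient and 107 and 83.8 CPM in Foxp3cre libraries (-1.37, SE 0.28, adjusted p = 0.0446), a call lost on leaving out any single library of the 4, with values between -1.56 and -1.20. Without Foxp3cre replicate 2 none of the 12 targets was called. Bcl6, the follicular T cell factor that opposes Blimp1, had 53.3 and 48.4 CPM against 23.5 and 24.9 CPM and did not pass (1.07, SE 0.43, adjusted p = 0.621). Tcf7, a factor of resting T cells, was at 0.64 (SE 0.29, adjusted p = 0.781). The follicular T cell list had a median of 0.61, with 11 of 12 values positive and none called. In the list of 15 resting and lymphoid-homing genes the median was -0.38 and none was called, with Ccr7 at -0.22 and Bach2 at -1.15.

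Chemokine receptors moved in both directions. Of 18 members 2 were called lower, Ccr2 among them, and Cxcr4, the receptor of CXCL12 that retains cells in bone marrow, was called higher. Cxcr4 had 1033 and 675 CPM in Blimp1-deficient and 244 and 296 CPM in Foxp3cre libraries (1.66, SE 0.34, adjusted p = 0.0406), against 309 and 287 CPM in the male Foxp3RFP libraries. That call was lost without Foxp3cre replicate 2 (1.78, adjusted p = 0.291), without Foxp3cre replicate 1 (1.51, adjusted p = 0.173) and without Blimp1-deficient replicate 1 (1.31, adjusted p = 0.46). Cxcr5 stood at 0.16 (adjusted p = 1) and Ccr6 at 1.78 (adjusted p = 0.835).

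Further genes called lower with a low ratio between the control pools were RNA-binding protein genes and others. Cirbp, a cold-inducible RNA-binding protein, had 19.4 and 30.3 CPM in Blimp1-deficient and 143 and 135 CPM in Foxp3cre libraries (-2.48, SE 0.30, adjusted p = 0.0011). Srsf5, a splicing factor, was at 28.4 and 56.9 CPM against 158 and 198 CPM (-2.06, SE 0.27, adjusted p = 0.00117). Also called lower were Mmp9, a matrix protease that neutrophils also make (-3.73), Ly6c2, a surface antigen of monocytes and some T cells (-2.61), Gpcpd1, a phosphodiesterase of choline lipids (-1.42), and the phosphatase gene Ptp4a3 (-1.23). Without Foxp3cre replicate 2, the lower genes on no list of other cells that were still called included Ccr2, Cirbp, Scd1 and Srsf5. Mmp9, Ly6c2 and Ptp4a3 lost their calls without that library and without either Blimp1-deficient library. The call of Gpcpd1 was lost on leaving out any single library of the main groups.

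Genes called higher included a set of chaperones. Hsph1 (chromosome 5, 149616843 to 149636498 in GRCm38), which encodes the HSP110 co-chaperone of HSP70, had 668 and 187 CPM in Blimp1-deficient libraries, against 48.4 and 36.7 CPM in Foxp3cre libraries. Both Blimp1-deficient pools were above both controls, although they differed from each other more than the controls did. The log2 fold change was 3.33 (SE 0.48, adjusted p = 0.00239), and the male Foxp3RFP libraries had 166 and 91.7 CPM. Without Blimp1-deficient replicate 1 it was 2.12 (adjusted p = 0.0717). Dnaja4, an HSP40 co-chaperone, had 193 and 59.9 CPM in Blimp1-deficient and 17.6 and 13.1 CPM in Foxp3cre libraries (3.04, SE 0.43, adjusted p = 0.00212), with 1.95 (adjusted p = 0.0717) without Blimp1-deficient replicate 1. Dnajb1, another member of that family, was at 479 and 256 CPM against 107 and 89.0 CPM (1.91, SE 0.30, adjusted p = 0.00495). Chordc1, a co-chaperone of HSP90, was higher by 1.78 (SE 0.29) and Hspa8, the constitutive HSP70, by 1.13 (SE 0.22).

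Of the 12 heat shock genes listed 3 were called higher (Hsph1, Dnajb1 and Hspa8) and none lower. All 12 had positive log2 fold changes, with a median of 1.77 against 0.00 over all genes tested, and 11 did not overlap between groups, against 18.4% of all genes tested. Their sum was 5723 and 3484 CPM in Blimp1-deficient, 2390 and 1868 CPM in Foxp3cre and 3466 and 2825 CPM in male Foxp3RFP libraries. The inducible HSP70 gene Hspa1a had 17.4 and 2.43 CPM in Blimp1-deficient libraries, against 0.0555 and 0 CPM in Foxp3cre libraries, and did not pass (adjusted p = 0.279). None of the 12 was called without Foxp3cre replicate 2, where their median was 1.84, with Hsph1 at 3.11 (adjusted p = 0.115) and Dnajb1 at 1.75 (adjusted p = 0.15). Outside the list, Dnaja4 was then at 2.81 (adjusted p = 0.0884) and Chordc1 was called (2.04, adjusted p = 0.0393). Without Blimp1-deficient replicate 1 none of the 12 was called and their median was 1.06.

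The promoters of 3 chaperone genes called higher are shown for their heat shock elements, the binding sites of heat shock factors, and that of Ccr2 as the promoter of the main effector gene called lower. Sequences are from RefSeq (GRCm38.p6), run from 250 bases before to 50 after an annotated start and read 5′ to 3′ on the strand of the gene. They lie at chr5:149636287-149636586 on the minus strand (Hsph1), chr9:54699309-54699608 (Dnaja4), chr9:18292017-18292316 (Chordc1) and chr9:124101933-124102232 (Ccr2) on the plus strand. The Ccr2 window lies wholly inside the gene span given above, so the bases before that span were not searched. The Hsph1 start used also lies inside its gene span. Capitals mark GAANNTTC or TTCNNGAA, each a pair of inverted units of the element that reads the same on both strands and may overlap the other.
Hsph1: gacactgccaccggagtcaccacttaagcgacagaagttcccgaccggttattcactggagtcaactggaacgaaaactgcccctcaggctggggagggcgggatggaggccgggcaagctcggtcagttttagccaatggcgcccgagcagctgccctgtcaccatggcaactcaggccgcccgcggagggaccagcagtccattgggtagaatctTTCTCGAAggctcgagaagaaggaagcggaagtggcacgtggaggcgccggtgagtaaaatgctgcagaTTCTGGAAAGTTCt
Dnaja4: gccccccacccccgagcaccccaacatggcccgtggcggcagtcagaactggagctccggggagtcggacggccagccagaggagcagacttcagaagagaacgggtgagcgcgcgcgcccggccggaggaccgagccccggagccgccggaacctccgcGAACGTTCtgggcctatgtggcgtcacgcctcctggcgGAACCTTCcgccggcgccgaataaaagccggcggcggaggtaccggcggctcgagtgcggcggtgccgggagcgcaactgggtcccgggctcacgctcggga
Chordc1: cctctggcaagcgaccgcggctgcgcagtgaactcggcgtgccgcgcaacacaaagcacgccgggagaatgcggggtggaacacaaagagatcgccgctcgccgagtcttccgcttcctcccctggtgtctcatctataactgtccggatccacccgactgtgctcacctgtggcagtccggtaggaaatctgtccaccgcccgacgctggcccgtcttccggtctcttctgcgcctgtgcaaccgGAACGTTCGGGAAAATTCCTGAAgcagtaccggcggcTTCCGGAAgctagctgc
Ccr2: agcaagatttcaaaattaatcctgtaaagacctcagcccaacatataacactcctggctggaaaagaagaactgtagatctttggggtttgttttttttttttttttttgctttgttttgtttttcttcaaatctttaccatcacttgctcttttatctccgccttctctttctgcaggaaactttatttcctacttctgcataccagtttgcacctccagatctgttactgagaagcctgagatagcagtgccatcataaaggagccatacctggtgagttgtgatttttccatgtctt
The Chordc1 promoter holds 5 matches, of which 4 form 1 overlapping run at the start of transcription, Hsph1 holds 3 and Dnaja4 holds 2. Hsph1 and Dnaja4 each have 2 annotated starts in the table, and the window not shown holds 3 matches for Hsph1 and 0 for Dnaja4. Of the 18 genes called higher 14 had a promoter in the table, and 5 of these held a match (35.7%), namely Hsph1, Dnaja4, Chordc1, Cxcr4 and Tmem33. Among all 27025 genes with a promoter, 17.0% held a match. Of the 37 genes called lower 17 had a promoter, and 1 held a match, Ly6c2. The core of the Blimp1 site, AGNGAAAG on either strand, was found in the promoters of none of the 14 higher and none of the 17 lower genes, against 9.91% of all genes, and these letters are not in the Ccr2 window shown. A match describes the letters of the window and shows no binding.

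**Figure D4:**
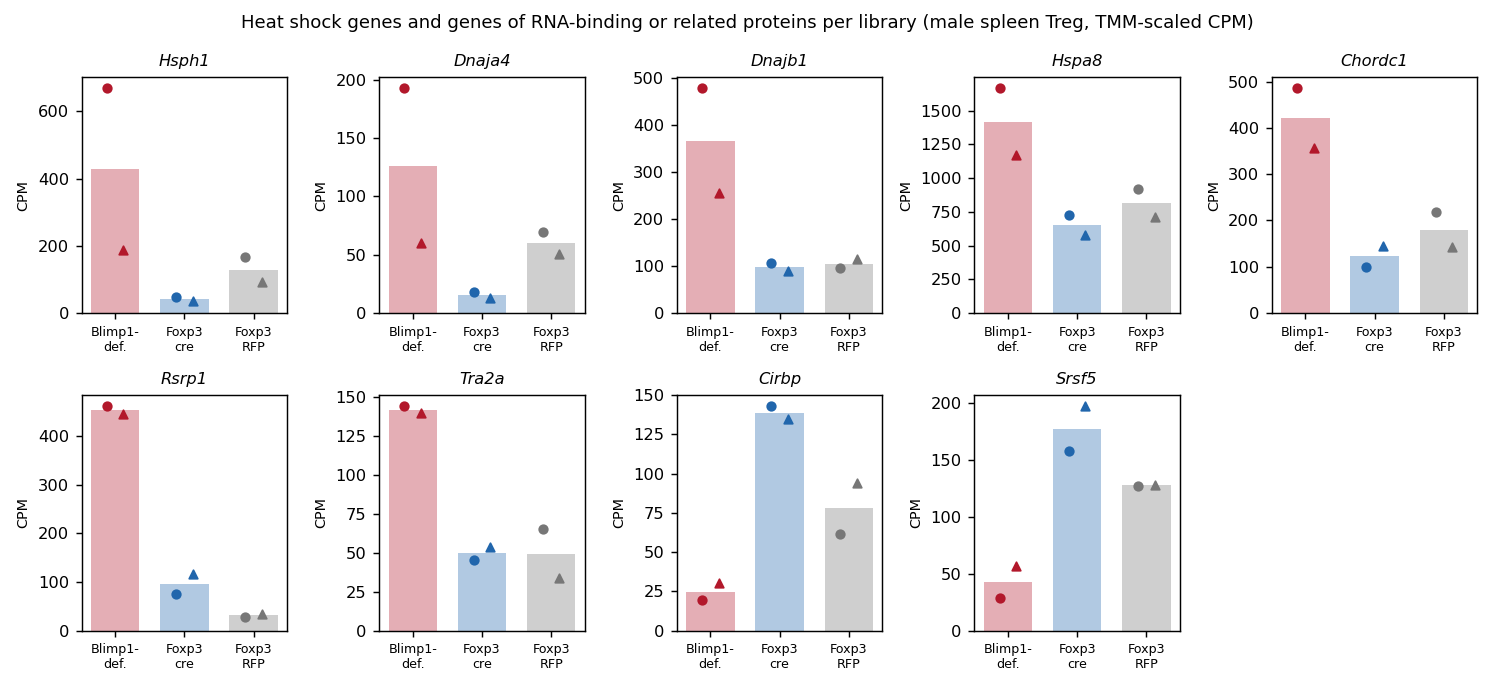
Level of 5 heat shock and chaperone genes (top) and 4 genes of RNA-binding or related proteins (bottom) in each male spleen Treg library, in TMM-scaled CPM; bars are group means of 2 libraries, circles replicate 1, triangles replicate 2. Hsph1 and Dnaja4 are highest in Blimp1-deficient replicate 1, and Cirbp and Srsf5 are lowest in both Blimp1-deficient libraries.

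Other genes called higher were on no chaperone list. Rsrp1, an arginine and serine rich protein, had 462 and 446 CPM in Blimp1-deficient and 75.7 and 116 CPM in Foxp3cre libraries (2.24, SE 0.28, adjusted p = 0.0011). The male Foxp3RFP libraries were lower still, at 28.9 and 34.9 CPM. Tra2a, a splicing regulator, had 144 and 140 CPM against 45.6 and 53.8 CPM (1.52, SE 0.28, adjusted p = 0.0186). Nr4a2, an immediate early nuclear receptor, was higher by 2.57 (SE 0.51) as the 1 member called of 18 immediate early genes, whose median was -0.07, and none of them was called without Foxp3cre replicate 2. Without Blimp1-deficient replicate 1, Nr4a2 was at 1.5 (adjusted p = 0.905). P4ha1, a collagen hydroxylase subunit (1.92), Ddit4, a stress-induced inhibitor of mTORC1 (1.12), and Stx11, a syntaxin of lymphocyte granule release (1.26), were also called. Of these P4ha1 was at 0.89 (adjusted p = 1) without Blimp1-deficient replicate 1, and its call was also lost without either Foxp3cre library (1.82 and 1.97). The rest were Tmem33 (1.64), Ccdc117 (1.58), Cldnd1 (1.49), Zfp207 (1.17), Ttc39c (1.08) and Ptges3-ps (1.55), a pseudogene whose reads may come from its parent gene. Among all the genes called higher, only Chordc1, Rsrp1 and Tmem33 kept their calls without Foxp3cre replicate 2. Tra2a and Stx11 lost theirs on leaving out any single library of the main groups. Interferon-stimulated genes and cell cycle genes had no member called, out of 20 in each list.

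The Blimp1-deficient pools were also set against male Foxp3RFP spleen Treg, a comparison that shares the Blimp1-deficient libraries with the first one. The reporter and the pool size differ as well and the Foxp3RFP labels give no age, so these cannot be told apart from genotype. This comparison called 51 genes (0.294%), 19 higher (0.11%) and 32 lower (0.185%), and 1080 had an unadjusted p under 0.05. Of the 32 lower genes 18 were on B lineage lists or were immunoglobulin segments. Side by side, Ccr2 was at -3.05 against Foxp3RFP (SE 0.34, adjusted p = 0.000256) and -2.51 against Foxp3cre, Fgl2 at -1.85 and -1.67, and Cirbp at -1.65 and -2.48. Rsrp1 was at 3.83 (adjusted p = 4.79e-06) and 2.24, and Dnajb1 at 1.81 (adjusted p = 0.0096) and 1.91. Hsph1 did not pass against Foxp3RFP (1.73, adjusted p = 0.157), nor did Cxcr4 (1.52, adjusted p = 0.0667) or Myc (-0.76, adjusted p = 0.502). Prdm1 was at -0.03 (adjusted p = 1). Tnfrsf25, the death receptor DR3, was called higher against Foxp3RFP (1.71, adjusted p = 0.0111) and stood at 0.33 against Foxp3cre. Of 84 ribosomal protein genes tested, a list added after the data were seen, 5 were called higher against Foxp3RFP and none against Foxp3cre. Positive log2 fold changes were found for 82 of them against Foxp3RFP (median 0.73) and for 22 against Foxp3cre (median -0.19).

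The same genotype contrast was available in VAT, where it called 142 genes (0.819%) and rests on a single Foxp3cre library whose labels conflict on tissue. That library is assumed to vary like the other groups. The difference of the contrast between spleen and VAT was tested directly as an interaction, and called 62 genes (0.358%), 28 with a higher (0.161%) and 34 with a lower (0.196%) value in spleen. Klrg1 was at -0.02 in spleen and -3.77 in VAT (difference 3.75, adjusted p = 0.00933), and Il1rl1 at -0.05 and -3.32 (difference 3.27, adjusted p = 0.000794). In CPM, Il1rl1 had 40.4 and 42.6 in Blimp1-deficient and 33.3 and 52.7 in Foxp3cre spleen Treg, while VAT Treg had 190 and 183 in Blimp1-deficient and 1860 in Foxp3cre pools. The effector genes S100a4 (2.99), S100a6 (2.80), Cxcr6 (2.67), Fgl2 (2.23) and Lgals1 (2.08) also had called differences, each less negative in spleen or positive there. Follicular genes differed the other way, with Cxcr5 at 0.16 in spleen and 3.37 in VAT (difference -3.21, adjusted p = 0.00132) and the T cell adaptor gene Sh2d1a at 0.84 and 3.07 (difference -2.22, adjusted p = 0.0315). Ccr2 was at -2.51 in spleen and -3.67 in VAT, and the difference did not pass (1.16, adjusted p = 0.616). The heat shock list had a median of 1.77 in spleen and 0.85 in VAT, with no called difference.

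**Figure D5:**
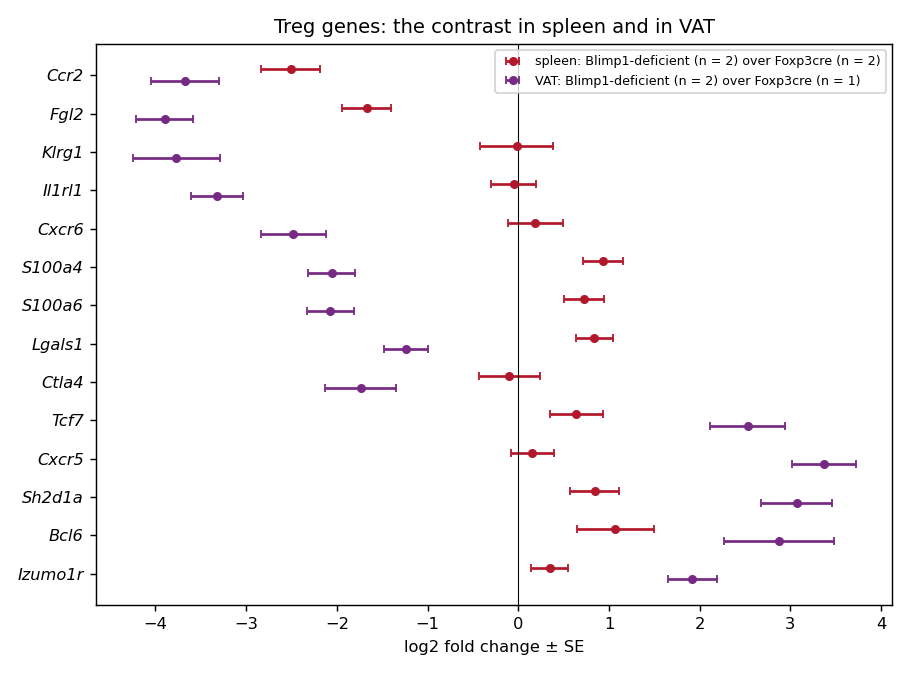
Log2 fold change with SE of Blimp1-deficient over Foxp3cre Treg for 14 Treg genes, in spleen (red, 2 against 2 libraries) and in VAT (purple, 2 against 1 library). Ccr2 is negative in both tissues, Klrg1 and Il1rl1 are near 0 in spleen and below -3 in VAT, and Cxcr5 is near 0 in spleen and above 3 in VAT.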

How the data were processed

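The authors deposited 1 table of raw read counts (whole numbers, 27179 genes under Entrez identifiers) and log2 FPKM values per library, the second used here only to check columns: all 19 T cell files matched their own count column best. The submitters' processing notes name GRCm38, mm10, Subread 1.6.2, featureCounts and limma, and total RNA was prepared with a TruSeq kit per the labels' protocols; the sources used here give neither the strand setting nor the annotation. Of the count columns 6 matched no sample and were left out. Names came from the deposited files for 16520 genes and from RefSeq (GRCm38.p6), which also gave coordinates and promoters, for 8792; 1867 had none.

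Counts were tested in R 4.3.3 with edgeR 4.0.16, by its two-sided quasi-likelihood test (TMM, filterByExpr by group, Benjamini-Hochberg), fitted over 19 sorted T cell libraries in 10 groups that share one estimate of the spread, since 2 libraries a group give few degrees of freedom. Positive log2 fold changes are higher in Blimp1-deficient Treg. SEs were derived from the fold change and the F statistic of its test. Replicate pairs differed beyond sampling noise (chi-square per degree of freedom 121 and 213 in the main groups), so none was merged. The value was 63.4 in Blimp1-deficient VAT, 68.5 in male Foxp3RFP and 76.6 in female spleen Treg. The shared spread thus also rests on pairs that differed less than those of the main groups. Depth ran from 20244609 to 37257641 counts in the 4 libraries. The fit was also run on counts simulated with the spread it had itself estimated, equal in all groups. That run cannot test whether the shared spread suits the main groups. Folds against a group at 0 use a floor of 3 counts over the group.

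Named genes were the 8 largest called changes in each direction with libraries that did not overlap and at least 5 CPM in the higher group (without sex-linked genes, gene models and immunoglobulin segments), up to 3 called members of each of 22 lists, and key genes whatever their result; the remaining called genes were added after their values were seen, and a few genes are not reported here. Members and lists were chosen with earlier results of these data known. Alternatives were DESeq2 1.42.0, its size factors, no filter, fewer libraries in the fit, the replicate number as a block, summed B cell markers as a covariate (log2 of CPM plus 1), no immunoglobulin genes, and leaving out each library. Sums scaled by TMM were added after the data were seen.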

Additional observations from a re-analysis of the deposited data

Results flagged for a closer look

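Several genes had a contrast that differed between spleen and VAT by the test of that difference in edgeR (spleen minus VAT, adjusted p under 0.05), with 2 Blimp1-deficient libraries against 2 Foxp3cre libraries in spleen and against 1 in VAT.

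Klrg1 differed by 3.75, with 36.8 and 64.8 CPM in Blimp1-deficient and 57.0 and 45.9 CPM in Foxp3cre spleen Treg, and 165 and 126 CPM in Blimp1-deficient and 1983 CPM in Foxp3cre VAT Treg. Il1rl1 differed by 3.27 and Cxcr5 by -3.21, as described above. Pcsk1, a prohormone convertase gene, differed by 7.84, with 20.9 and 21.8 CPM in Blimp1-deficient and 0 and 0.929 CPM in Foxp3cre spleen Treg, and 27.7 and 22.8 CPM in Blimp1-deficient and 116 CPM in Foxp3cre VAT Treg. Hlf, a PAR bZIP transcription factor gene, differed by 5.66, with 38.5 and 22.0 CPM in Blimp1-deficient and 0.694 and 4.60 CPM in Foxp3cre spleen Treg, and 18.0 and 16.1 CPM in Blimp1-deficient and 74.7 CPM in Foxp3cre VAT Treg. Neither gene passed the test within spleen (adjusted p = 0.0664 for Pcsk1 and 0.0695 for Hlf).

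B lineage genes also differed between the tissues, in Cd79a by -8.77, Igkc by -6.29 and Jchain by -7.26. Cd79a had 3.92 and 3.13 CPM in Blimp1-deficient and 1.32 CPM in Foxp3cre VAT Treg, so B lineage RNA was low in both VAT groups, unlike in Foxp3cre spleen Treg. The next 2 fitted differences depend on the prior count, because the single Foxp3cre VAT library had no count of the gene and they are no measure of size. These were Spib (-15.75) and Cd160 (-12.19), a receptor gene of NK and some T cells that had 7.44 and 14.4 CPM in Blimp1-deficient and 14.1 and 14.6 CPM in Foxp3cre spleen Treg.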

How the results depend on the processing

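The count of 55 called genes in spleen became 319 with DESeq2, which held all 55, 147 without the filter on low counts, 111 with the 8 spleen Treg libraries alone (44 of the 55), 8 with only the 4 libraries compared (1 of the 55; none higher, 1354 at an unadjusted p under 0.05) and 1 with summed B cell markers as a covariate (none of the 55). That gene was Ctse, a protease gene at 23.8 and 24.6 CPM in Blimp1-deficient and 473 and 31.7 CPM in Foxp3cre libraries. The covariate differs between the groups themselves and shifted the median of all genes by -0.13, so marker level and genotype cannot be told apart in it; Ccr2 was at -2.12 and Hsph1 at 2.87 with it (adjusted p = 1 for both). The fit of 4 libraries has few degrees of freedom and takes its spread from the main groups alone. Ccr2 was at -2.52 (adjusted p = 0.0692) there. Leaving out each library gave 1 to 93 calls. Against male Foxp3RFP, 51 became 333, 122, 209 (only the groups compared) and 1 (covariate), and 13 to 32 on leaving out a library. For the difference between tissues, 62 became 369, 133, 158 and 10, and 21 to 76 on leaving out a library. DESeq2 size factors and removal of immunoglobulin genes kept each count within 1.5 times. Deviations of libraries with the same replicate number were hardly correlated over genes (-0.0122 between the main groups). With 2 libraries a group this cannot show whether pools were handled as pairs. With the replicate block the counts were 46, 41 and 35. Uncalled genes changed sign with the covariate, namely Foxp3 to -1.87, Cd3e to -0.33, Cd4 to -0.15, Gata3 to 0.20, Il1rl1 to 0.66, Il2 to -6.24 and Xbp1 to 0.035. On leaving out 1 library, uncalled values spanned 0, with Foxp3 between -0.36 (without Foxp3cre replicate 2) and 1.76, Ccr7 between -0.73 and 0.49, Ctla4 between -0.33 and 0.13, Cxcr5 between -0.0071 and 0.29, Il1rl1 between -0.37 and 0.29, Irf4 between -0.18 and 0.30, and Klrg1 between -0.52 and 0.32. For other changes of call the cause was not tested. With 2 pools a group, the largest changes pass most readily, and a gene not called is not shown to be equal.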
